A study of Mus musculus with 7 samples.

Results

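Layer 5 projection-tract-type (PT-type) excitatory nuclei were taken from single-nucleus RNA-Seq (snRNA-Seq) of mouse primary visual cortex (V1) by the transcripts that each nucleus held. A nucleus was kept when it had more than 200 non-viral transcripts, counted as unique molecular identifiers (UMIs). It was a member when it had no UMI of Gad1 or Gad2, the enzymes of GABA synthesis, at least 3 UMIs summed over Fam84b, Qrfpr, Bcl6, Npr3, Pou3f1, Slc26a4 and Fezf2, and at most 1 UMI summed over the layer 6 genes Foxp2, Syt6 and Rprm. Of 32335 kept nuclei, 350 met the rule, a share of 1.08% with an exact binomial interval from 0.973% to 1.20%. All intervals given here are 95% intervals that cover counting error alone, without the differences between animals, and libraries enriched by PCR have more error than this. Because the rule used UMI counts, the levels of its 7 selecting genes are a description and not a finding.

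Layer 5 PT neurons, also called extratelencephalic or subcerebral projection neurons, send long axons to targets below the cortex such as the superior colliculus, the pons and the spinal cord. They have large cell bodies and a thick apical dendrite that reaches the cortical surface. Fezf2 is the transcription factor that specifies their identity during development, and Bcl11b (CTIP2) acts downstream of it in the outgrowth of their axons.

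The mice were adult male C57BL/6J animals of 6 to 10 weeks whose V1 had received the pooled PESCA library. This is an AAV9 library in which each gene regulatory element (GRE) drives a reporter transcript marked by 3 barcodes. All nuclei came from injected cortex, and no uninjected control was analysed here. The labels describe 1 snRNA-Seq sample, whose 10 libraries are numbered as 2 sets of 5, and the methods describe 2 animals with 5 libraries each without tying a library to an animal. With 1 sample there was no replicate test of any difference, and the range over the 10 libraries is given as technical spread.

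The libraries held 2457 to 3629 kept nuclei and 2496224 to 3041931 non-viral UMIs each, and each gave 29 to 46 members. Members made up 0.802% to 1.55% of the kept nuclei of a library, with a median of 1.01%. The share was 0.901% in library set 1 (159 of 17656, 0.767% to 1.05%) and 1.30% in set 2 (191 of 14679, 1.12% to 1.50%), so the counting intervals of the sets did not overlap. Kept nuclei held 811 UMIs on average in set 1 and 964 in set 2, and the part of this depth in the share was not tested. Of 25866 different cell barcodes among kept nuclei, 5476 occurred in more than 1 library, and the barcode of 125 members was also found in another library. Members carried more RNA than other nuclei, with a median of 1937 UMIs against 704 in all other kept nuclei. The median member UMIs of a library lay between 1666 and 2329. A mean of 1316 genes was detected per member against 603 per other kept nucleus. Mitochondrial transcripts made up 0.104% of member UMIs and 0.242% of those of other kept nuclei. A rule that needs 3 UMIs takes deep nuclei more readily than shallow ones, so the part of the rule and of the cells in this depth cannot be told apart.

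Levels are UMIs of a gene per 10000 non-viral UMIs, summed over the nuclei of a group, and a ratio divides the level in members by that in the comparison nuclei. The comparison groups were as follows. The broadest was all 31985 other kept nuclei. Other excitatory nuclei were the 7629 kept nuclei without Gad1 or Gad2 UMIs that had at least 1 UMI of Slc17a7, Neurod6 or Neurod2 and were not members. Layer 6 marker nuclei (426) had at least 3 UMIs of Foxp2, Syt6 and Rprm, and upper layer marker nuclei (496) had at least 3 UMIs of Cux2, Rasgrf2, Otof and Wfs1. These last groups were chosen by a threshold of the same height as the members, and their median depths of 1389.5 and 1435.5 UMIs were nearer to that of members than the 1016 UMIs of other excitatory nuclei. A gene was listed when at least 20 UMIs were expected in members at its rate in all kept nuclei. The genes that the rule used were not listed. Slc17a7, Neurod6 and Neurod2 were not listed against the excitatory groups, nor the genes that chose upper layer marker nuclei against these.

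Each selecting gene was found in a part of the members. Fezf2 was found in 194 of 350 members, Bcl6, a transcriptional repressor, in 174, and Fam84b in 116. Pou3f1, a POU-domain transcription factor, was found in 115 members, Npr3, the clearance receptor for natriuretic peptides, in 106, Qrfpr, the receptor of the neuropeptide QRFP, in 91, and Slc26a4, an anion exchanger, in 85. Most members had more than 1 of these genes, since 165 had UMIs of 3 or more, 118 had UMIs of 2, and 67 were selected on 1 gene alone. Members held between 22.3% (Pou3f1) and 37.0% (Fam84b) of the UMIs of a selecting gene among all kept nuclei, so most transcripts of each gene lay outside the members. Just inside the threshold were 144 members with 3 UMIs, and just outside it 478 nuclei had 2 UMIs and met the other conditions.

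Several genes that the rule did not use went with the sum of the selecting genes, and others did not. Only nuclei that met the other conditions of the rule were counted here. The level of Parm1, which encodes a mucin-like membrane protein, was 0.74 in the 23355 such nuclei with none of the selecting UMIs, 1.91 with 1 UMI and 3.69 with 2. It was 6.37 with 3 UMIs, 7.63 with 4 and 8.99 with 5 or more. Bcl11b had levels of 0.63 without selecting UMIs, 1.51 with 2, 2.88 with 3 and 3.53 with 5 or more. Tbr1, a transcription factor of deep-layer corticothalamic neurons, went the other way, from 1.91 without selecting UMIs to 0.49 with 5 or more. Cux2, a regulator of upper layer neurons, went from 0.90 to 0.12, but in nuclei of 1500 to 2499 UMIs it was 0.24 with 2 UMIs and 0.35 with 3. Nefl, the light neurofilament chain, showed no such order, with 1.93 without selecting UMIs, 2.51 with 3 and 1.80 with 5 or more, and neither did Nefm or Slco2a1. Parm1 followed the same order in nuclei of 1500 to 2499 UMIs, where it was 0.71 without selecting UMIs, 4.69 with 2, 7.42 with 3 and 8.60 with 5 or more. Nuclei with 2 UMIs, just outside the rule, thus stood between the members and the rest for Parm1, Bcl11b and Tbr1 in these pooled levels. Each level pools all nuclei of a step, so whether single nuclei form a range or separate groups was not tested.

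**Figure D1:**
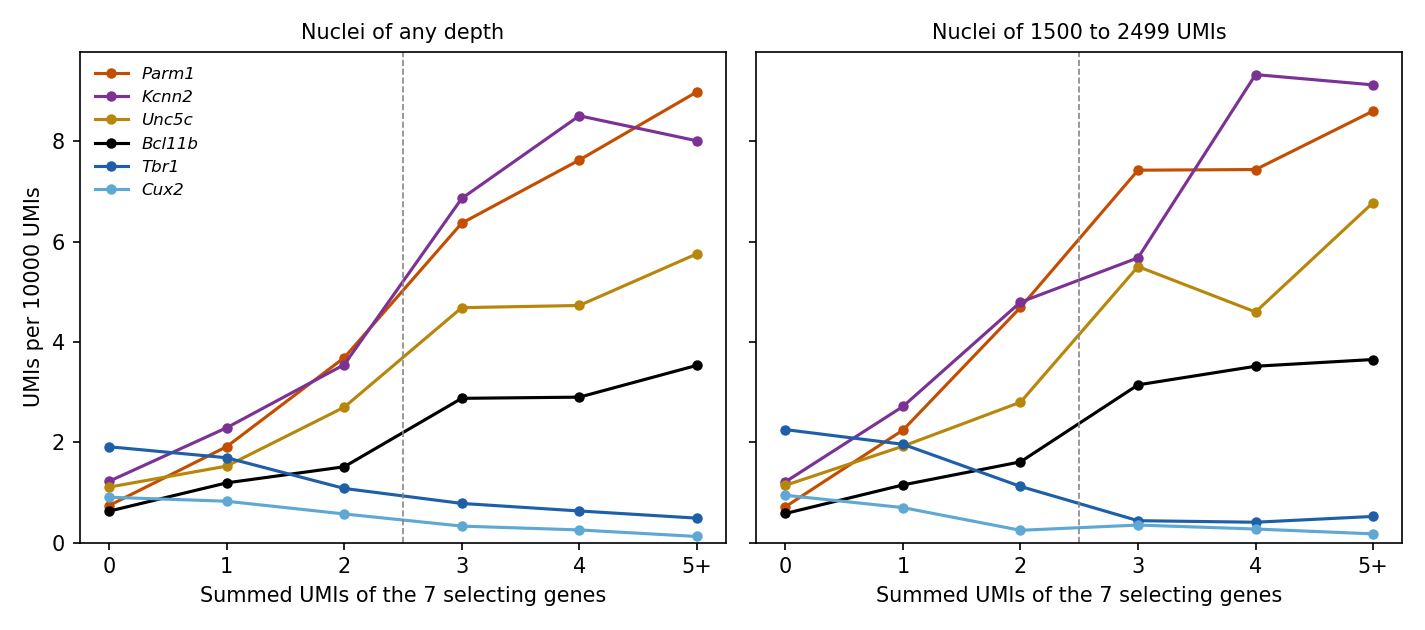
Level of 6 genes outside the rule (UMIs per 10000 UMIs) against the summed UMIs of the 7 selecting genes per nucleus, for nuclei of any depth (left) and for nuclei of 1500 to 2499 UMIs (right). Each point pools all nuclei of a step that met the other conditions of the rule, and members lie right of the dashed line. Parm1, Kcnn2, Unc5c and Bcl11b were higher right of the line than at 0 selecting UMIs and Tbr1 and Cux2 lower, with Parm1 at 0.74 without selecting UMIs and 8.99 with 5 or more.

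The label was checked with 15 further genes known from layer 5 PT neurons that the rule did not use. This list was chosen with earlier results of these data known, so the check is not independent. Their summed level was 25.9 in members, 12.4 in other excitatory nuclei and 11.4 in all other kept nuclei. By library it lay between 21.7 and 32.1 in members and between 10.9 and 13.8 in other excitatory nuclei, without overlap. Layer 6 marker nuclei had 20.0, much nearer to members, and upper layer marker nuclei 7.64. The median member had 5 UMIs of this list, with quartiles of 2 and 8, and 37 members (10.6%) had none. Among nuclei of 1500 to 2499 UMIs, at least 3 UMIs of the list were found in 119 of 152 members (78.3%), 70.3% of layer 6 marker nuclei, 39.4% of other excitatory nuclei and 15.2% of upper layer marker nuclei. Each gene was also left out in turn, a choice made after seeing the data. Without Parm1 the list had 18.1 in members and 19.1 in layer 6 marker nuclei, a ratio of 0.943, and without Pcp4 it had 22.5 and 11.8, a ratio of 1.90. Without both genes the ratio was 1.34, beside 1.29 for the whole list, and leaving out any other gene gave 1.22 to 1.36. The ratio of the list to layer 6 marker nuclei thus depended on Parm1 and Pcp4, which pulled it in opposite directions. To upper layer marker nuclei it was 2.49 without Parm1 and 3.12 without Pcp4.

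Of the 15 genes, 11 were listed, and 5 of these were at least 2 times higher in members than in other excitatory nuclei and none at most 0.5 times. Over all 7213 genes listed in this comparison, 168 (2.33%) were at least 2 times higher and 303 (4.2%) at most 0.5 times, and the median ratio was 1.02 against 1.52 over the 11 PT genes. The 5 genes were Parm1 (9.37), Nefh (3.92), Bcl11b (3.21), Tox (2.36) and Crym (2.26). The libraries of members and other excitatory nuclei overlapped for Nefh, which had 0 to 1.81 against 0.174 to 0.288, and for Crym, which had 0.205 to 1.61 against 0.304 to 0.631. Nefh encodes the heavy neurofilament chain of large axons, Tox is a nuclear HMG-box protein, and Crym is a cytosolic thyroid hormone-binding protein. The other listed PT genes had ratios nearer to 1, at 0.970 for Pcp4, a calmodulin-binding protein, 1.00 for Nefl, 1.40 for Nefm, the medium neurofilament chain, 1.11 for Slco2a1, 1.39 for Ldb2 and 1.52 for Cdh13. Vat1l was under the limit for listing, with 48 UMIs in 40 members and a ratio of 5.72.

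Parm1 set members apart in every library. Its level in members had a minimum of 5.11, a median of 7.86 and a maximum of 10.7 over the 10 libraries, and other excitatory nuclei had 0.591 to 1.02. The groups did not overlap, as held for 89 (1.23%) of all listed genes with members above, and the 571 Parm1 UMIs came from 213 members with at most 11 in a nucleus. The ratio was 9.37 (8.38 to 10.5) with 9.78 in library set 1 and 9.07 in set 2, and 8.01 when the comparison nuclei were weighted to the libraries and depths of members. Parm1 was 8.93 times higher in members than in layer 6 marker nuclei and 20.0 times higher than in upper layer marker nuclei. Bcl11b had levels of 2.05, 3.16 and 4.17 (lowest, median and highest library) in members against 0.764 to 1.13 in other excitatory nuclei, again without overlap. Its ratio was 3.21 (2.77 to 3.72) there, 21.0 against upper layer marker nuclei, and 1.24 against layer 6 marker nuclei, which also express this gene.

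Of layer 5 intratelencephalic (IT) genes, which mark neurons that project within the cortex, Etv1 and Deptor were listed. Etv1, an ETS-family transcription factor of layer 5, had levels of 1.94, 2.94 and 3.88 in members against 0.541 to 0.920 in other excitatory nuclei, and a ratio of 3.98 (3.39 to 4.65). Deptor, an inhibitor of mTOR signalling, had a ratio of 0.323 on 23 UMIs, of which 13 came from library 3 of set 2. Its level there was 1.51 in members and 1.02 in other excitatory nuclei, and the ratio without this library was 0.160. Batf3 was not found in members. These listed layer 5 IT genes thus went in opposite directions. The summed level of the IT list was 3.46 in members and 2.06 in other excitatory nuclei (ratio 1.68). Its ratio to layer 6 marker nuclei was 2.49, beside 1.29 for the PT list. Etv1 alone gave 2.93 of the sum in members and 0.737 of that in other excitatory nuclei. In layer 6 marker nuclei it gave 0.316 of 1.39. Both IT ratios thus rested on Etv1 and do not describe the IT genes as a class. Genes of layer 5 near-projecting neurons were too sparse to be listed, with a summed level of 0.644 in members and 0.797 in other excitatory nuclei.

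Several markers of other layers were lower than in other excitatory nuclei. Of 6 listed layer 2/3 genes, 4 were at most 0.5 times the level of other excitatory nuclei and none at least 2 times, with Cux2 at 0.252, Calb1, which encodes calbindin, at 0.321, Wfs1 at 0.336 and Rasgrf2 at 0.422. Lamp5, of the same list, had a level of 6.75 in members and 3.78 in other excitatory nuclei (ratio 1.79), with 4.99 to 9.21 in members and 3.06 to 4.63 in the others by library. All 10 libraries of members thus lay above all 10 of the others for Lamp5, against the direction of its other genes, and the summed level of the list was 9.89 in members and 10.2 in other excitatory nuclei (ratio 0.972). Against layer 6 marker nuclei no listed layer 2/3 or layer 4 gene was at most 0.5 times, and the summed levels were higher in members, at 2.07 times for layer 2/3 and 1.84 times for layer 4 genes. Of layer 4 genes, Rorb, a nuclear receptor that patterns layer 4, was at 0.372 of other excitatory nuclei and Tmem215 at 0.358, and the deafness gene Whrn at 0.514. Tle4, a corepressor of corticothalamic neurons, was at 0.372, Garnl3 at 1.05, and Ctgf, a marker of layer 6b, at 0.413. Moxd1 and Nxph4, also of layer 6b, were not found in members.

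**Figure D2:**
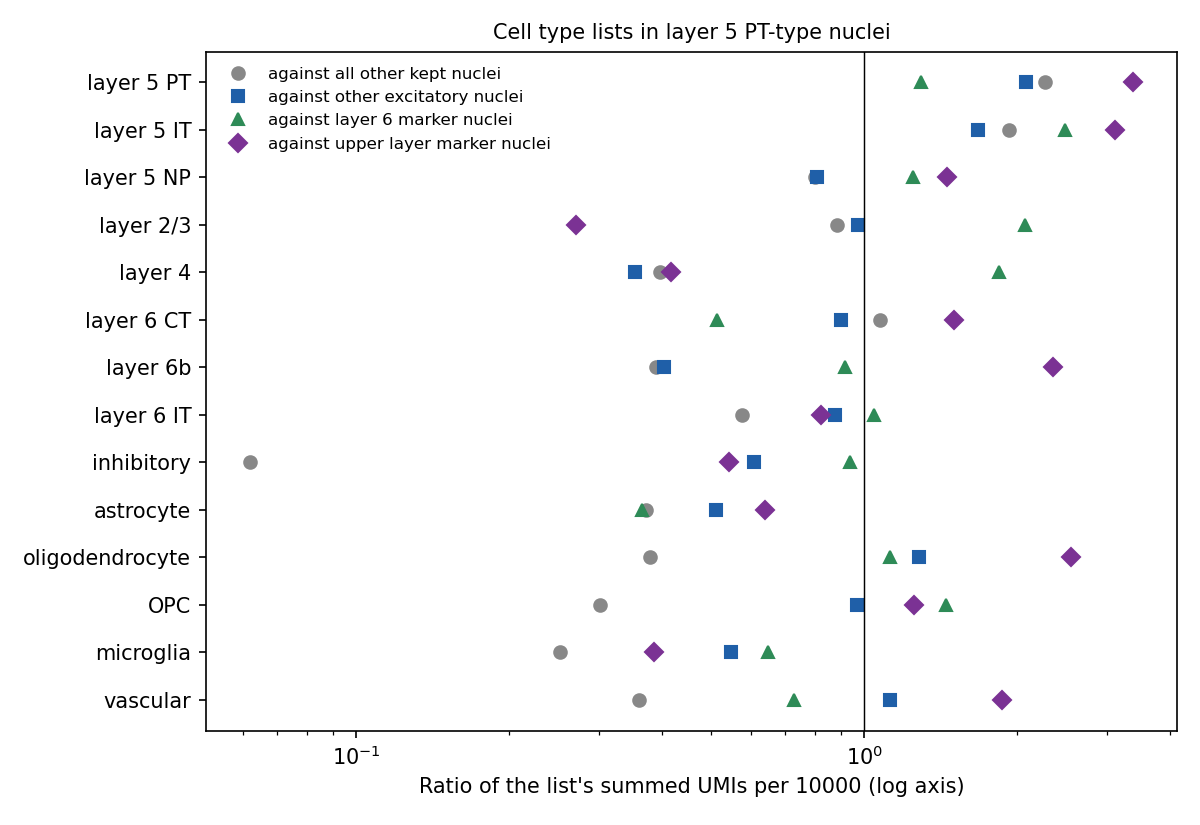
Ratio of the summed level of cell type lists in members to that in 4 comparison groups (log axis), with the vertical line at 1. The lists of excitatory, lymphocyte and haemoglobin genes are not shown. Other excitatory nuclei were chosen by Slc17a7, Neurod6 or Neurod2 of the excitatory list. Upper layer marker nuclei were chosen by Cux2, Rasgrf2, Otof and Wfs1 of the layer 2/3 list. The ratios of these lists to these groups are thus lowered by construction. Members had no Gad1 or Gad2 UMI by the rule, which bears on the inhibitory list. The excitatory list was below 1 against all 4 groups (0.815, 0.559, 0.580 and 0.640 in the order given next). The layer 5 PT list was above 1 against all 4 groups (2.27 against all other kept nuclei, 2.09 against other excitatory nuclei, 1.29 against layer 6 marker nuclei, where it was 0.943 without Parm1 and 1.90 without Pcp4, and 3.39 against upper layer marker nuclei), and the inhibitory list was lowest against all other kept nuclei (0.0618).

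As a summed list, general excitatory genes were lower in members than in each comparison group. The level of the 8 genes was 30.3 in members and 37.1 in all other kept nuclei (ratio 0.815), which include glial and inhibitory nuclei. Of the 8 genes, 2 were at most 0.5 times there, beside 5.78% of all listed genes, and none at least 2 times. The ratio was 0.559 to other excitatory nuclei, 0.580 to layer 6 marker nuclei and 0.640 to upper layer marker nuclei. The first of these is lowered by construction, since Slc17a7, Neurod6 and Neurod2 are on the list. Slc17a7, the vesicular glutamate transporter VGLUT1, had a level of 2.40 in members and 3.64 in all other kept nuclei. It was 4.99 in layer 6 marker nuclei and 3.62 in upper layer marker nuclei. At least 1 UMI of Slc17a7, Neurod6 or Neurod2 was found in 146 members (41.7%), whereas other excitatory nuclei were chosen by such a UMI. Restricting members to those 146 left 72 of 4364 listed genes at least 2 times higher than in other excitatory nuclei, and 257 at most 0.5 times.

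Transcripts of other cell types were found in many members, since 26.6% had no glial or vascular UMI, and a few nuclei held large parts of them. This was not particular to members. The share without such a UMI was 28.7% in other excitatory, 13.1% in layer 6 marker and 32.7% in upper layer marker nuclei. The astrocyte list gave 628 UMIs in 175 members, of which 8 nuclei held 274 (43.6%) and 1 nucleus of set 1 held 161 with no UMI of the PT list. Of 424 oligodendrocyte UMIs in 105 members, 6 nuclei held 260, and of 136 vascular UMIs in 33 members, 3 nuclei held 104. In all, 18 members (5.14%) had 10 or more UMIs of an inhibitory, glial or vascular list, and 7 of them were selected on a single gene. The inhibitory list had a summed level of 0.739 in members against 12.0 in all other kept nuclei, where the rule itself excluded Gad1 and Gad2, and Lhx6 and Adarb2 were at 0. Among microglial genes C1qa and P2ry12 were at 0 and no member had more than 3 UMIs of the list, and among vascular genes Vtn was at 0. The summed astrocyte level was 8.60 in members and 16.8 in other excitatory nuclei, the oligodendrocyte level 5.81 and 4.53, and the vascular level 1.86 and 1.65. Their part in the gene ratios was tested only by leaving nuclei out. By library the summed level in members ranged from 3.74 to 29.7 for astrocyte, 1.31 to 14.7 for oligodendrocyte and 0.146 to 9.00 for vascular genes. Without the 18 nuclei, 332 members remained and 144 genes were at least 2 times higher than in other excitatory nuclei and 374 at most 0.5 times. These counts come from a gene list that fewer members made shorter. They cannot be set directly against the 168 and 303 of 7213 genes for all members.

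Members selected on a single gene differed from those with several. The 67 nuclei with UMIs of 1 selecting gene had a Parm1 level of 1.84, against 7.40 in the 118 nuclei with 2 genes and 9.40 in the 165 nuclei with 3 or more. Bcl11b followed with 1.52, 3.15 and 3.56, and Kcnn2 with 3.25, 7.05 and 9.13. Cux2 was 1.19 in nuclei with 1 selecting gene and 0.05 in those with 3 or more, and Rorb 1.84 and 0.24. The summed astrocyte level was 32.2, 7.09 and 4.13 in the same order, and the vascular level 8.99, 0.70 and 0.90. Without the highest nucleus of the 67, these were 15.3 for astrocyte and 2.27 for vascular genes, and the oligodendrocyte level was 5.09, 9.19 and 4.08 in the order above. The 67 nuclei were also shallower, with a median of 1234 UMIs against 2327.

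The single-gene members were not of 1 kind. The 15 nuclei selected on Bcl6 alone had a summed astrocyte level of 90.2 and a vascular level of 29.3, and single nuclei carried both values. Of the astrocyte UMIs, 1 nucleus held 161 of 194, with a level of 18.0 in the other 14, and another held all 63 vascular UMIs. The Parm1 level of the 15 nuclei was 2.33. Of the 8 nuclei selected on Npr3 alone, 1 held 27 UMIs of Mgp, a matrix protein of vascular and meningeal cells, the others had none, and no nucleus had Parm1. The 25 nuclei selected on Fezf2 alone had 4 Parm1 UMIs, 3 of them in 1 nucleus, and 7 Tbr1 UMIs, a level of 2.31 beside the 2.47 of other excitatory nuclei. The levels of Parm1, Bcl11b and Kcnn2 were thus lower in members selected on a single gene, and the astrocyte level was higher also without the highest nucleus. The nuclei left out here were chosen after seeing the data. In the 283 members with at least 2 selecting genes, 153 genes were at least 2 times higher than in other excitatory nuclei and 355 at most 0.5 times. These counts come from a gene list that fewer members made shorter. Over the 7213 genes listed for all members, 178 were higher and 406 lower with this restriction, beside 168 and 303 without it. Both this restriction and the removal of the 18 nuclei were chosen after seeing the data.

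Among genes with at least 50 UMIs expected in members and a ratio on the same side of 1 in all 10 libraries, those with the largest ratios to other excitatory nuclei included Parm1, Kcnn2, Fam19a1, Unc5c, Serpine2, Npnt, Etv1, Nav1, Bcl11b, Capn2 and Pex5l. Kcnn2, the SK-type calcium-activated potassium channel, had levels of 5.70, 7.69 and 9.83 (lowest, median and highest library) in members and 1.06 to 1.81 in other excitatory nuclei. Its ratio was 5.38 (4.86 to 5.95). All 10 libraries of members thus lay well above those of other excitatory nuclei. Pex5l, a relative of the import receptor of peroxisomes, had a ratio of 2.76 (2.45 to 3.12).

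Fam19a1, a secreted chemokine-like protein, had levels of 6.96, 8.85 and 10.7 in members against 1.36 to 2.30 in other excitatory nuclei. The ratio was 4.85 (4.42 to 5.31), and 23.2 against layer 6 marker nuclei. Serpine2, a secreted inhibitor of serine proteases, had a ratio of 4.22 (3.70 to 4.80), and Npnt, the matrix protein nephronectin, 4.11 (3.46 to 4.86). Nav1, a microtubule-binding protein of growing axons, had 3.27 (2.75 to 3.87) and Capn2, a calpain protease, 2.82 (2.22 to 3.55). For each of these 11 genes, all 10 libraries of members lay above all 10 of other excitatory nuclei, which the choice of genes by ratio and library largely fixed.

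**Figure D3:**
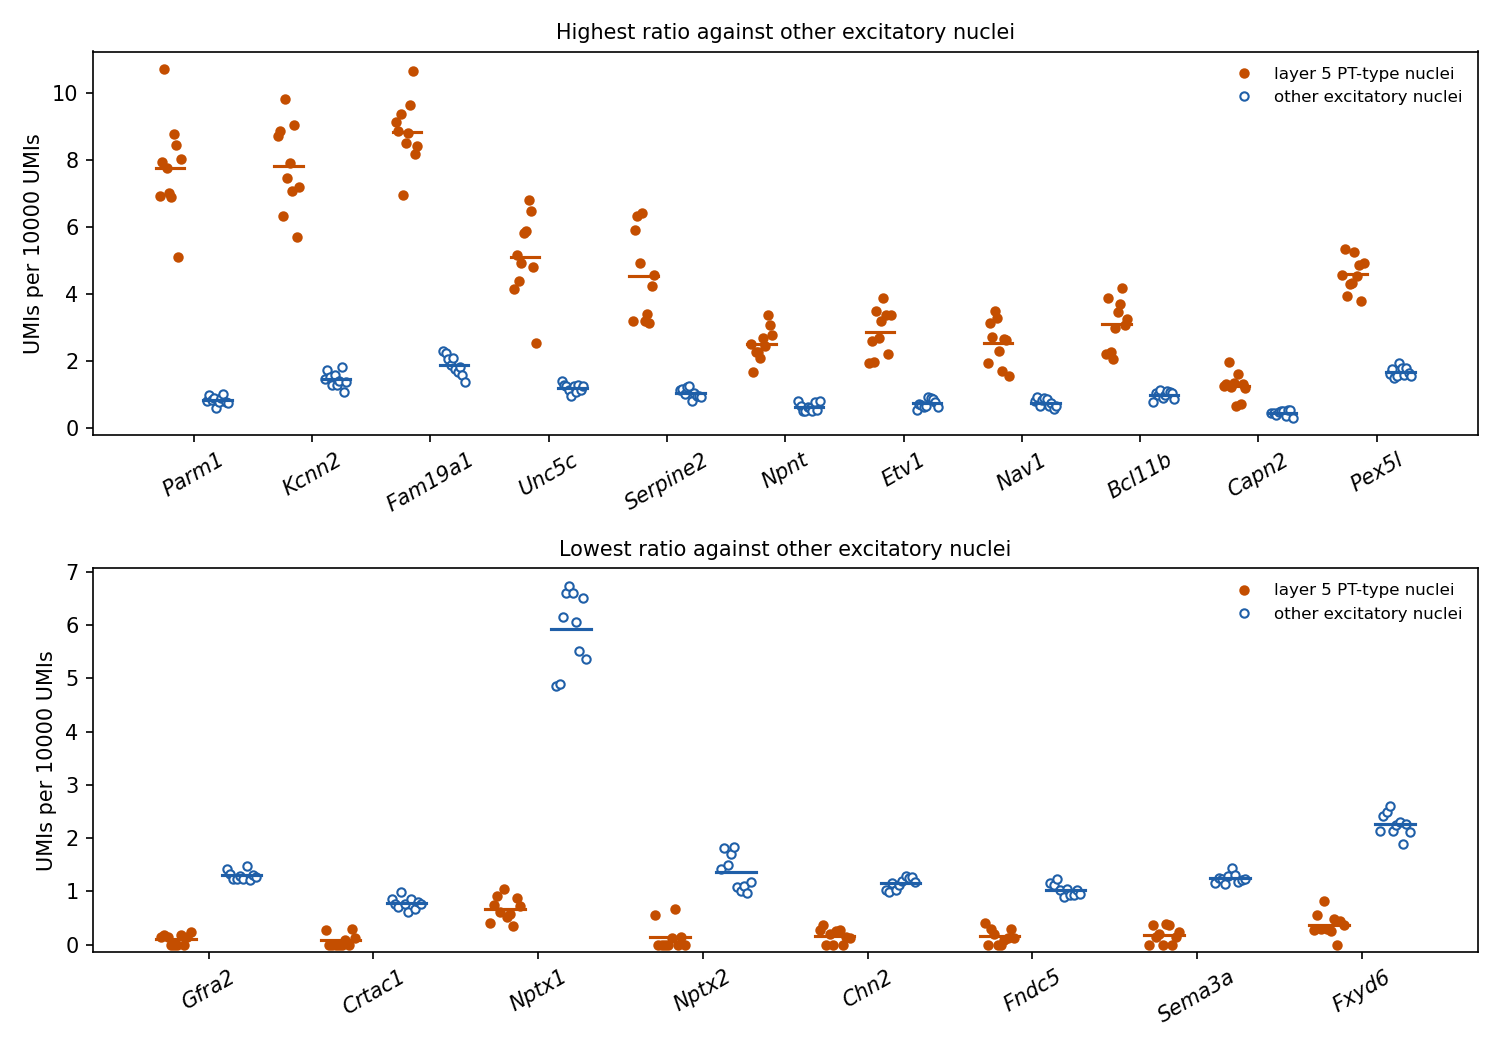
Level (UMIs per 10000 UMIs) of 11 genes with a high ratio and the 8 with the lowest ratio to other excitatory nuclei, 1 point per library, with the mean over 10 libraries as a line. Parm1 lay between 5.11 and 10.7 in layer 5 PT-type nuclei and between 0.591 and 1.02 in other excitatory nuclei, and Nptx1 between 0.348 and 1.04 against 4.86 to 6.73.

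Against all other kept nuclei, 113 of 7216 listed genes (1.57%) were at least 2 times higher and 417 (5.78%) at most 0.5 times. The largest ratios by the same rule included those of Parm1 (5.52), Kcnn2 (4.87), Fam19a1 (4.45), Etv1 (4.01), Unc5c (4.00), Bcl11b (3.58), Npnt (3.43), Slc6a7 (3.07), a high-affinity proline transporter of excitatory terminals, and Tox (2.82). Most of these genes also led the comparison with other excitatory nuclei, which belong to both comparison groups.

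The 8 lowest ratios to other excitatory nuclei were those of Gfra2 (0.0840), Crtac1 (0.105), Nptx1 (0.111), Nptx2 (0.134), Chn2 (0.142), Fndc5 (0.146), Sema3a (0.154) and Fxyd6 (0.158). Nptx1, a neuronal pentraxin that gathers AMPA receptors at synapses, had 48 UMIs in members, with 0.348 to 1.04 per 10000 by library against 4.86 to 6.73 in other excitatory nuclei. The groups did not overlap, as for all 8 genes and for 200 (2.77%) of all listed genes with members below, and the ratio had an interval from 0.0814 to 0.147. Gfra2, the receptor of the growth factor neurturin, had 8 UMIs in members and a ratio interval from 0.0362 to 0.166. The related pentraxin Nptx2 had 13 UMIs, 5 of them in 1 nucleus and 7 in library 2 of set 2, without which its ratio was 0.0703. Crtac1, a secreted calcium-binding protein, had 6. Chn2 is a GTPase-activating protein for Rac, Fndc5 the precursor of irisin, and Fxyd6 a regulator of the sodium pump.

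Of 26 listed transcription factors and other regulators of cortical layer and subtype, 3 were at least 2 times higher than in other excitatory nuclei (Etv1, Bcl11b and Sox5 at 2.22) and 8 at most 0.5 times. The 8 were Tbr1 (0.249), Cux2, Rorb, Tle4, Lhx2 (0.385), Nr2f1 (0.410), Cux1 (0.418) and Lmo4 (0.498). The median over the list was 0.816. Over all listed genes, 2.33% were at least 2 times higher and 4.2% at most 0.5 times. All 10 libraries of members lay above those of other excitatory nuclei for 1.23% and below for 2.77%. The same shares apply to the lists that follow. Tbr1 had levels of 0.185, 0.533 and 1.20 in members against 2.08 to 2.82 by library, without overlap. Nr2f1 (COUP-TFI), an areal patterning factor, had 0.410 to 2.34 against 2.78 to 3.57, also without overlap. Sox5, which controls the timing of deep-layer neuron types, had 0.554 to 1.85 against 0.432 to 0.702, so its libraries overlapped. Nfib, a nuclear factor I protein, had a ratio of 1.75 with 4.68 to 7.47 in members against 2.95 to 3.95. Otx1, a homeodomain factor of layer 5, was under the limit for listing, with 27 UMIs in 24 members and a ratio of 4.04. The regulators lower in members than in other excitatory nuclei included those of layer 2/3 and 4 (Cux2, Rorb) and of layer 6 (Tbr1, Tle4). The rule limited Foxp2, Syt6 and Rprm in members but not in other excitatory nuclei, and its part in the low layer 6 genes was not tested. Against layer 6 marker nuclei Cux2 was at 2.18, with 1.94 to 4.35 without 1 library.

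Axon guidance genes went both ways. Of 30 listed, 8 were at least 2 times higher than in other excitatory nuclei and 5 at most 0.5 times. Beside these stand 2.33% and 4.2% of all listed genes, and the median of the list was 1.10. Among receptors, Robo1, which binds Slit proteins, had a ratio of 5.06 with 0.554 to 1.79 in members against 0.0856 to 0.259. Unc5c, a netrin receptor that mediates repulsion, had levels of 2.52, 5.04 and 6.81 against 0.951 to 1.41 and a ratio of 4.31 (3.82 to 4.86). Its paralog Unc5d had 0 to 1.02 in members against 1.65 to 2.41, and a ratio of 0.212 (0.142 to 0.303). The netrin receptor genes Unc5c and Unc5d thus lay on opposite sides, each without overlap of libraries, and Unc5b was not found in members.

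Nrp1, a semaphorin coreceptor, had a ratio of 2.49 with 0.961 to 3.48 in members against 0.394 to 0.798. Plxnd1, a plexin that binds class 3 semaphorins, had 9 UMIs in members and a ratio of 0.193 (0.0876 to 0.368). Of ligands, Sema3a had 14 UMIs and a ratio of 0.154 (0.0838 to 0.259), Slit1 6 UMIs and 0.238, and Sema5a 0.417. Sema3c (2.26), Sema6d (2.50), Ntng1, a netrin-G cell adhesion molecule (3.23), the homophilic adhesion protein Dscaml1 (3.01) and Efnb3, an ephrin-B ligand (2.06), were at least 2 times higher. Ligands and receptors were thus found on both sides.

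Of 22 listed potassium channel genes, 1 was at least 2 times higher than in other excitatory nuclei, Kcnn2, and 6 at most 0.5 times. Among all listed genes 2.33% were higher and 4.2% lower by these limits, and 1 higher gene of 22 is near that share. The 6 were Kcnc2 (0.182), Kcnc1 (0.190), Kcnh1 (0.297), Kcnip2 (0.307), Kcna4 (0.471) and Kcnq3 (0.492), with a list median of 0.834. Kcnc1 and Kcnc2 encode Kv3 channels of fast-spiking cells, and each had at most 2 UMIs in a member. Kcnc1 had levels up to 0.415 in members against 0.836 to 1.58 in other excitatory nuclei, and Kcnc2 up to 0.739 against 0.972 to 1.46. Kcnh1, an ether-a-go-go channel, had 0.447 to 1.66 against 3.19 to 4.18. Kcna2, a Kv1 channel of axons, had 4.84 to 6.84 in members against 3.57 to 4.47, with a ratio of 1.47 (1.32 to 1.63). The libraries of members and other excitatory nuclei did not overlap for any of these last 4 channels.

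**Figure D4:**
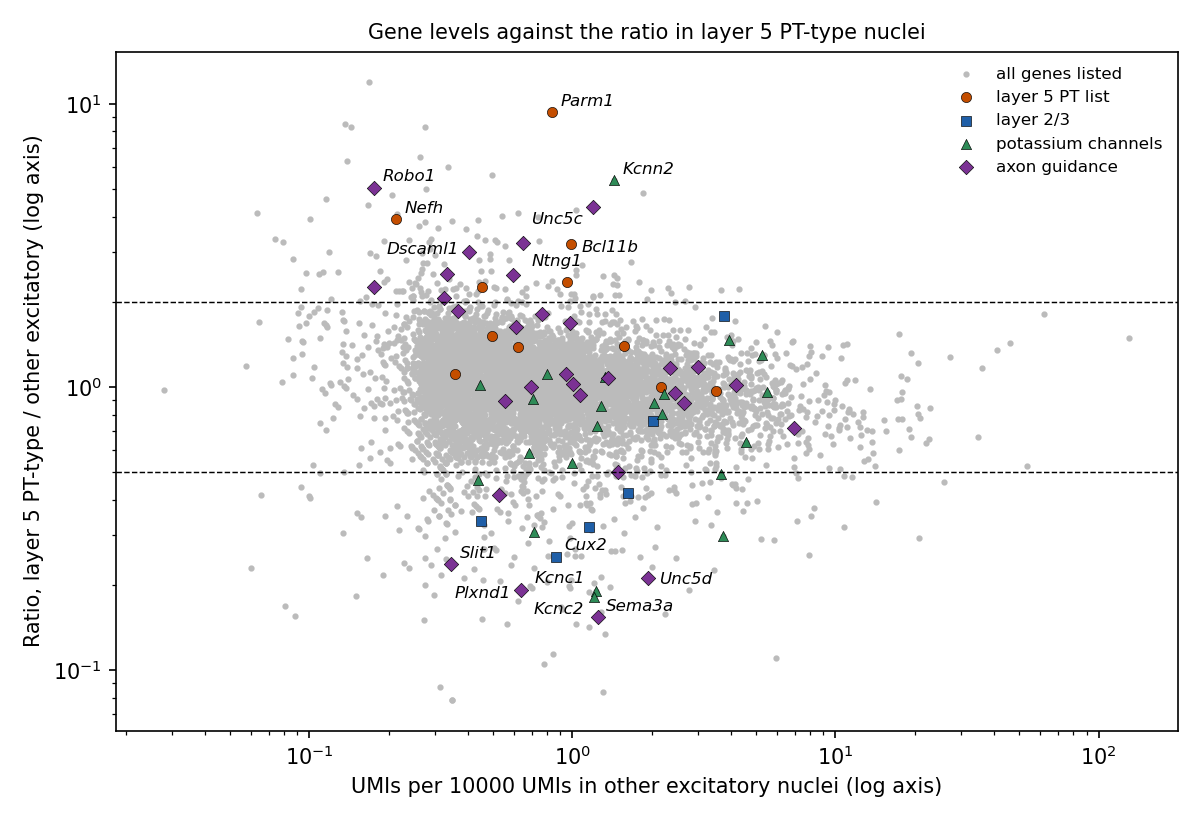
Ratio of the level in members to that in other excitatory nuclei against the level in other excitatory nuclei, both on log axes, with 1 point per listed gene and dashed lines at ratios of 2 and 0.5. Layer 5 PT, layer 2/3, potassium channel and axon guidance genes are marked, with Parm1 at 9.37 and Kcnn2 at 5.38 above the upper line and Sema3a at 0.154 below the lower one.

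Of 22 listed sodium and calcium channel genes, 3 were at least 2 times higher and 1 at most 0.5 times, with a median of 0.798. Shares over all listed genes were 2.33% and 4.2%, and 1 lower gene of 22 is near the second. Cacna2d2, a calcium channel auxiliary subunit, had a ratio of 4.41 on 54 UMIs. Scn4b, an auxiliary subunit linked to resurgent sodium current, had 3.42 with 0.614 to 2.08 in members against 0.234 to 0.607, and Scn1a, a sodium channel of the axon initial segment, had 2.01. Cacng2 was at 0.498. Cacna1h, a T-type calcium channel, was under the limit for listing and had the highest ratio on this list, 8.79 (6.44 to 12.0) on 76 UMIs in 58 members. Its levels were 0.384 to 1.84 in members against 0.0724 to 0.186, without overlap. Ryr3, a calcium release channel of internal stores, was likewise not listed, with 52 UMIs and a ratio of 5.73.

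Of 18 listed glutamate receptor genes, Grin3a, an NMDA receptor subunit (4.78), and Grm8, a presynaptic metabotropic receptor (2.01), were at least 2 times higher. By comparison, 2.33% of all listed genes were at least 2 times higher and 4.2% at most 0.5 times. Grin3a rested on 72 UMIs in 34 members, with levels from 0.146 to 2.72 against 0.0486 to 0.317, so its libraries overlapped. At most 0.5 times were Grik1 (0.250), Gria4 (0.321), Grik3 (0.348), Grm3 (0.363), Grik4 (0.439) and Grik5 (0.487), of which 4 are kainate receptor subunits. The kainate subunit Grik2, under the limit for listing with 23 UMIs, lay the other way. Its median library level was 0.295 in members and 0.108 in other excitatory nuclei, and its libraries overlapped. Grik1 had 5 UMIs in members, and its ratio was 0.108 without library 2 of set 1, which held 3 of them. Grm5, a metabotropic receptor, had a ratio of 1.93 with 1.42 to 3.14 against 0.888 to 1.25, without overlap. None of 12 listed GABA receptor genes passed either limit, which few of all listed genes did. Their median was 0.690, from 0.525 to 1.66. Their summed level was 36.4 in members and 50.5 in other excitatory nuclei. Among 11 listed neuromodulator receptors, Adra1b, an adrenergic receptor, was at 2.03 and Npy1r, a neuropeptide Y receptor, at 0.389.

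Neurofilament and axonal cytoskeleton genes were mostly near the levels of other excitatory nuclei. Of 19 listed, 2 were at least 2 times higher, Nefh and the growth cone protein Gap43 (2.12), and the median was 1.00. The share at least 2 times higher was 2.33% over all listed genes. Ina, the neurofilament protein internexin, had 2.98 to 4.99 in members against 1.86 to 2.58 (ratio 1.73), without overlap. Kif5c, a kinesin, had a ratio of 0.680. Nefh itself came from 61 UMIs in 36 members and had a ratio of 3.31 once the comparison nuclei were weighted to library and depth.

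Immediate early genes, which neuronal activity and tissue dissociation induce, were mostly within the limits. Of 14 listed, Egr4 was at 2.14 in members relative to other excitatory nuclei, Nptx2 and Npas4 (0.384) were at most 0.5 times, and the median was 0.783. These limits were passed by 2.33% of all listed genes above and 4.2% below. Arc, an activity-induced synaptic protein, had 2.59 to 3.73 in members against 5.07 to 6.15, a ratio of 0.603 without overlap. Fos was at 0.629.

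Over the layer and pathway lists together, 24 listed genes were at least 2 times higher and 35 at most 0.5 times in members relative to other excitatory nuclei, out of 192 listed (12.5% and 18.2%, against 2.33% and 4.2% of all listed genes). The lists were chosen with results of these data known. Leaving out 1 library, an alternative added for these lists after seeing the data, took 5 of the 24 and 6 of the 35 across the limit. Without library 2 of set 2, Adra1b was at 1.89, Grm8 at 1.73, Scn1a at 1.89, Grik4 at 0.505, Grik5 at 0.563, Kcna4 at 0.542 and Lmo4 at 0.548. Without library 1 of set 2, Efnb3 was at 1.79 and Kcnq3 at 0.538. Sema3c was at 1.95 without library 3 of set 1, and Cacng2 at 0.533 without library 3 of set 2. All 11 stayed on the same side of 1.

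The other threshold groups gave a closer comparison in depth but shared fewer UMIs. Against layer 6 marker nuclei, 604 of 7213 listed genes (8.37%) were at least 2 times higher and 476 (6.6%) at most 0.5 times, and 91 (1.26%) had all 10 libraries of members above all 10 of the comparison. Against upper layer marker nuclei, 379 of 7210 (5.26%) were higher and 348 (4.83%) lower, and 63 (0.874%) had all 10 libraries above. The wider spread of ratios goes with comparison sums of 696815 and 791930 UMIs, against 8534173 for other excitatory nuclei. Against upper layer marker nuclei 7 of the 11 listed PT genes were at least 2 times higher and none at most 0.5 times, and their median was 3.56. Against layer 6 marker nuclei Nefh (11.6), Parm1 (8.93), Tox (3.73) and Cdh13 (2.10) were at least 2 times higher, Pcp4 (0.416) was at most 0.5 times, and the median was 1.23. Without 1 library Cdh13 lay between 1.82 (library 5 of set 2) and 3.23 (library 3 of set 2), and Nefh was at 18.7 without library 4 of set 2. Crym was at 0.669 of the level in layer 6 marker nuclei and at 27.1 times (8.93 to 134) that in upper layer marker nuclei, which held 3 of its UMIs.

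Viral transcripts were abundant in members. The viral UMIs were enriched by PCR and are not on the scale of other genes, so they are compared only between groups of nuclei. At least 1 was found in 337 of 350 members (96.3%, 93.7% to 98.0%). This share was 94.6% in upper layer marker, 88.5% in layer 6 marker and 87.2% in other excitatory nuclei. It was 79.4% in the barcodes with 200 or fewer UMIs, which held 8.53 on average and were taken as background. The mean was 46.1 viral UMIs per member, the median 19.5, with quartiles of 6.25 and 55, and the maximum 795. The load was uneven, since 18 members held 33.5% of the 16147 viral UMIs. All other kept nuclei had a mean of 15.4, other excitatory nuclei 16.4, layer 6 marker nuclei 15.4 and upper layer marker nuclei 34.7.

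The ratio of the mean in members was 2.99 to all other kept nuclei and 2.82 to other excitatory nuclei. By library, the mean in members had a minimum of 24.4 and a maximum of 62.4, and 7.20 to 18.9 in all other kept nuclei. The ratio within a library lay between 2.39 and 3.99 for all other kept nuclei and between 2.19 and 3.57 for other excitatory nuclei, above 1 in 10 of 10 libraries each. The lowest library of members, library 5 of set 2, was also the lowest for both these groups, at 7.20 and 8.80. To layer 6 marker nuclei the ratio was 2.99 and above 1 in 10 of 10 libraries. To upper layer marker nuclei it was 1.33 and above 1 in 8 of 10, with 0.751 to 2.85 by library. Members thus had more viral UMIs per nucleus than layer 6 marker nuclei in every library and differed less from upper layer marker nuclei.

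Much of the difference moved with depth, though less of that to layer 6 marker nuclei. Per 1000 non-viral UMIs, members had 22.1 viral UMIs, all other kept nuclei 17.8, other excitatory nuclei 14.6, layer 6 marker nuclei 9.44 and upper layer marker nuclei 21.7. Within a library, the ratio of these values to upper layer marker nuclei lay between 0.656 and 2.45 and was above 1 in 4 of 10 libraries. The barcodes with 200 or fewer UMIs, taken as background, had 70.4 on this scale, so the value per 1000 was highest where there was least RNA. With comparison nuclei weighted to the libraries and depth bins of members, the ratios of the mean were 1.24 to all other kept nuclei, 1.42 to other excitatory nuclei, 2.50 to layer 6 marker nuclei and 1.14 to upper layer marker nuclei. With each nucleus thinned to 300 non-viral UMIs and its viral UMIs in the same proportion, they were 1.25, 1.53, 2.06 and 1.02. This left out 7 members, 6137 of the other kept nuclei, 519 other excitatory nuclei, and 3 and 6 of the marker groups. Among nuclei of 1500 to 1999 UMIs, 78 members had a mean of 43.2 viral UMIs and other excitatory nuclei 26.4. The values for 2500 to 2999 UMIs were 38.1 in members, 32.6 in other excitatory nuclei and 44.6 in all other kept nuclei, so the order was not the same at each depth.

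**Figure D5:**
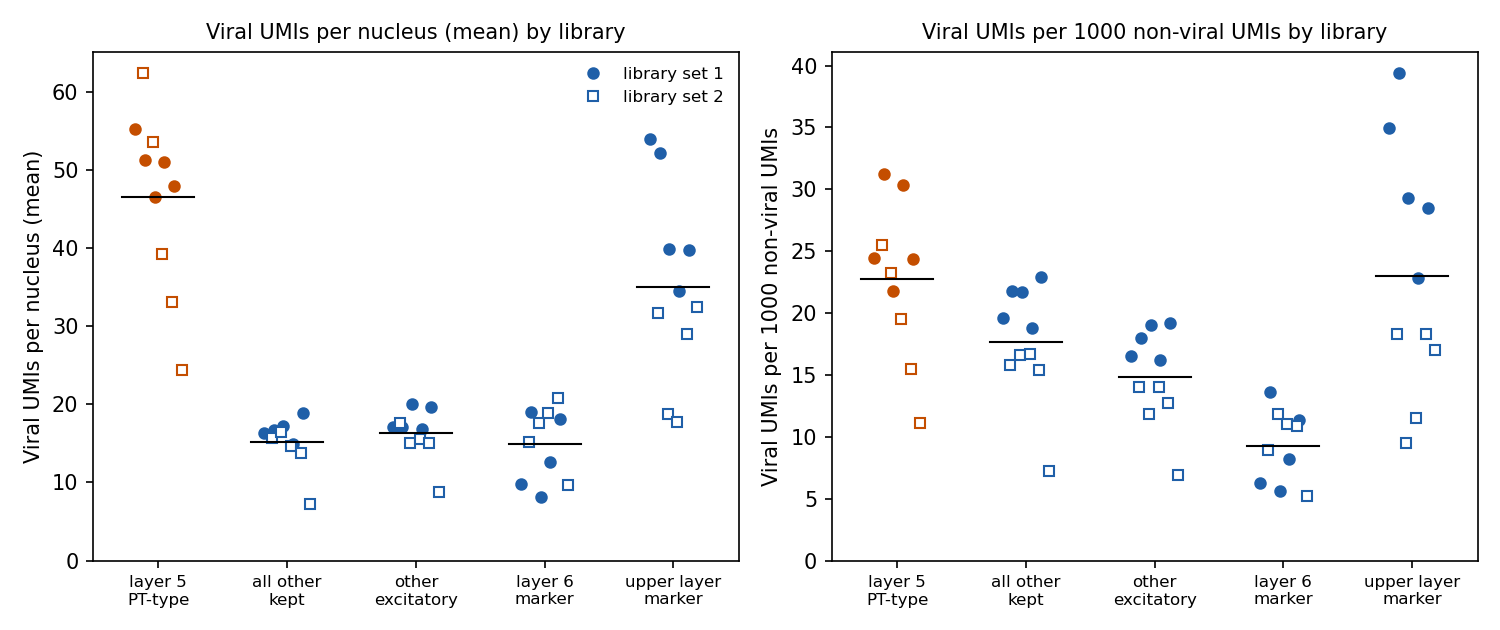
Viral UMIs per nucleus (left) and per 1000 non-viral UMIs (right), 1 point per library and group, with the mean over 10 libraries as a line and library sets as circles and squares. On the left members lay between 24.4 and 62.4 and all other kept nuclei between 7.20 and 18.9, without overlap, and on the right the groups overlapped, with members between 11.1 and 31.2.

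Viral load also differed among members. It was 19.2 per nucleus in the 67 members selected on a single gene, 49.5 in those with 2 selecting genes and 54.7 in those with 3 or more, or 14.0, 25.6 and 22.0 per 1000 non-viral UMIs. In the 91 members with Qrfpr UMIs the mean was 63.5, against 40.0 in those without, and 27.2 against 20.0 per 1000, the widest gap among the 7 selecting genes. The mean was higher with than without UMIs for 6 of the 7 genes and the value per 1000 for 5. Slc26a4 went the other way, at 45.1 against 46.5 and 19.4 against 23.1 per 1000, and Fam84b was at 21.0 against 22.8 per 1000. By set the mean was 50.4 in set 1 and 42.6 in set 2.

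The GREs were chosen for accessibility in SST interneurons, and their share of the viral UMIs was compared between members and other excitatory nuclei. Members held UMIs of 266 GREs, 15971 UMIs in all, with a median of 10 GREs per nucleus against 3 in other excitatory nuclei. The median was 4 in layer 6 marker nuclei and 7 in upper layer marker nuclei, and the groups differed in depth. Of 152 GREs with at least 20 UMIs expected in members, 4 (2.63%) had at least 2 times the share and 9 (5.92%) at most 0.5 times, with a median ratio of 0.939. The 4 were GRE33 (3.11), GRE34 (2.58), GRE35 (2.17) and GRE287 (2.08), of which all but GRE35 were named after their values were seen. Such ratios rest on few nuclei, and viral UMIs of 1 nucleus are not independent, so their intervals are too narrow.

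Among GREs with at least 50 UMIs expected, GRE35 had the highest share ratio at 2.17 (1.88 to 2.50), from 252 UMIs in 51 members. It was 1.87 in set 1 and 2.31 in set 2, and 1.92 without the nucleus that held 30 of its UMIs. Against all other kept nuclei the share ratio of GRE35 was 1.60, with 1.15 and 2.03 in the sets. Against layer 6 marker nuclei it was 1.42, with 0.911 and 1.96 in the sets. GRE35 is in an intron of Ebf1 (mm10, chr11:44943814-44944113). GRE190 followed at 1.86, and GRE133, an intergenic element (mm10, chr3:35232413-35232980), at 1.75. Of the 117 UMIs of GRE133, 41 came from 1 nucleus, and its ratio was 1.15 without it. The values of the sets were 2.16 and 1.56 for GRE190 and 1.42 and 2.22 for GRE133. GRE84, which overlaps an exon of Ptprt (mm10, chr2:162135151-162135483), had the lowest ratio at 0.338 (0.233 to 0.477), with 0.296 and 0.372 in the sets. GRE147 (0.483) and GRE109 (0.624), which overlaps an exon of Nrp1, differed between sets, at 0.193 and 0.802 for GRE147 and 0.906 and 0.356 for GRE109. Against other excitatory nuclei all 6 GREs kept their side of 1 in both sets. Without library 1 of set 2, however, GRE133 was at 0.994. GRE147 stayed below 1, at 0.320 to 0.553 without 1 library.

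The hits of the SST screen, GRE12, GRE19, GRE22, GRE44 and GRE80, had share ratios between 1.03 and 1.47. The ratio was 1.03 (0.837 to 1.25) for GRE22, 1.10 (0.949 to 1.28) for GRE44, 1.18 (0.928 to 1.49) for GRE19, 1.33 (1.04 to 1.68) for GRE12 and 1.47 (1.29 to 1.68) for GRE80. Without the nucleus that held the most UMIs of each, they were 0.702 for GRE22, 0.902 for GRE44, 0.989 for GRE19, 0.994 for GRE12 and 1.22 for GRE80. The library sets differed. In sets 1 and 2 the ratio was 0.600 and 1.46 for GRE22, 0.917 and 1.27 for GRE44, 0.789 and 1.66 for GRE19, 2.25 and 0.825 for GRE12, and 1.21 and 1.81 for GRE80. Of the 5 hits, GRE80 was thus above 1 against other excitatory nuclei in both sets and without its highest nucleus, and the other 4 lay on both sides of 1. Against all other kept nuclei GRE80 was at 1.10 (0.968 to 1.24), with 1.00 and 1.16 in the sets. Against layer 6 marker nuclei it was at 1.05, with 0.615 and 1.64 in the sets.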

How the data were processed

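snRNA-Seq counts of 1 sample were used. For these, the authors made libraries with inDrops, enriched viral transcripts by PCR, and mapped reads with the inDrops pipeline to GRCm38, to which a contig per viral barcode was joined. The deposited counts are UMIs per nucleus and gene for each of 10 libraries, not pooled and not normalized. The deposited table of GREs gave barcode names and coordinates. Its columns of ATAC and PESCA specificity, which are comparisons of the authors, and the ATAC-Seq files were not used.

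Nuclei were selected, and UMIs summed, with Python 3.11.15, numpy 2.4.6, scipy 1.17.1, pandas 2.3.3 and matplotlib 3.10.9. Members, comparison groups and gene lists were chosen with earlier results of these data known. Genes named were those on the lists, and the 12 highest and 8 lowest ratios to other excitatory nuclei and the 10 highest to all other kept nuclei, among genes with at least 50 expected UMIs and the same side of 1 in all libraries. A gene that these ranks name is not reported here. Ratios have exact conditional intervals, and shares have exact binomial ones. Doublets were neither called nor removed. No p-value was computed. GREs were placed on the GENCODE vM21 annotation. The gene comparison was checked on simulated counts that held counting error alone. They had no variation between nuclei, libraries or animals, so the check covers the computation and not such variation. Alternatives to the thresholds, groups, depth handling and libraries were tried.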

Additional observations from a re-analysis of the deposited data

Results flagged for a closer look

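For 48 values that were measured in members in each of the 10 libraries, the highest and the lowest library were compared with the others, and 7 stood apart by Dixon's criterion, which sets the gap to the nearest library against the range. Chance flags about 1 in 20 groups, and the libraries are parts of 1 sample. The summed level of a list is given in UMIs per 10000. In 4 of the cases, 1 nucleus held most of the UMIs. The inhibitory list was at 2.92 in library 4 of set 2 against 0.205 to 0.831 in the others, with 16 of 20 UMIs in 1 nucleus. The astrocyte list was at 29.7 in library 5 of set 1 against 3.74 to 9.97, with 161 of 199 UMIs in 1 nucleus. The list of oligodendrocyte precursor genes was at 2.43 in library 1 of set 2 against 0.146 to 0.739, with 17 of 19 UMIs in 1 nucleus. The vascular list was at 9.00 in library 1 of set 1 against 0.146 to 3.32, with 63 of 65 UMIs in 1 nucleus.

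The excitatory list was at 42.9 in library 4 of set 2 against 23.8 to 33.2, and 102 of its 294 UMIs came from 1 nucleus. The haemoglobin list was at 2.87 in library 3 of set 1 against 0.511 to 1.66, with 8 of 19 UMIs in 1 nucleus. The layer 2/3 list was at 11.9 in library 1 of set 2 against 8.95 to 10.5, with 11 of 93 UMIs in the highest nucleus.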

How the results depend on the processing

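No paired analysis was possible because the values come from no test. This refers to a test paired by replicate, since there was 1 snRNA-Seq sample. Members and comparison nuclei lay in the same 10 libraries. The viral ratios within a library are given above as a description. The number of members was 206 with at least 4 selecting UMIs, 828 with at least 2, 159 in set 1, 191 in set 2, and 304 to 321 without 1 library. The viral ratio to all other kept nuclei was 2.36 above 500 UMIs, 2.33 with at least 2 selecting UMIs, 1.25 thinned, 1.24 weighted to library and depth, and 2.89 to 3.06 without 1 library. That to other excitatory nuclei was 2.22 with at least 2 selecting UMIs, 1.53 thinned, 1.42 weighted, and 2.73 to 2.89 without 1 library. Genes at least 2 times higher and at most 0.5 times against all other kept nuclei numbered 52 and 227 in set 1, 69 higher in set 2, 21 and 79 with at least 100 expected UMIs, 2608 and 8793 with no minimum, 27 and 162 in members without glial or vascular UMIs, and 94 to 107 and 362 to 409 without 1 library. Against other excitatory nuclei they were 274 and 182 with at least 2 selecting UMIs, 83 higher in set 1, 97 in set 2, 28 and 74 with at least 100 expected UMIs, 3082 and 7243 with no minimum, 29 and 163 without glial or vascular UMIs (1.59% and 8.96% of 1820 listed, against 2.33% and 4.2%), 72 higher in members with an excitatory marker UMI, and 136 to 161 and 271 to 291 without 1 library. The values by set and library that follow were added after seeing the data. Layer 6 marker nuclei gave 380 higher in set 2, and 536 to 607 and 401 to 463 without 1 library. Upper layer marker nuclei gave 222 and 227 in set 1, 222 higher in set 2, and 337 to 381 and 306 to 341 without 1 library. For GREs the counts without 1 library were 4 to 6 and 7 to 10. Smaller sets list fewer genes, which lowers counts by construction. Over a gene list not shortened, 113 of the 168 higher genes (67.3%) and 251 of the 303 lower ones (82.8%) passed the limit again without glial or vascular UMIs. On that list this restriction gave 327 higher and 899 lower genes, of which the shared ones were 34.6% and 27.9%. For the other changes the cause was not tested. Ratios of the named genes stayed on their side of 1 in all 216 values against all other kept nuclei and all 550 against other excitatory nuclei. Most of these genes were chosen by ratio and by the same side of 1 in all 10 libraries, which largely fixed this outcome.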

Other observations

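Under the limit of 50 expected UMIs lay further genes that were higher in members than in other excitatory nuclei, chosen for naming after their values were seen. Of the listed genes, which leave out the selecting genes, Gprc5b, an orphan G protein-coupled receptor, had the largest ratio, 11.9. It came from 147 UMIs in 99 members with at most 4 in a nucleus, and was 10.7 in library set 1 and 13.6 in set 2. Against all other kept nuclei its ratio was 3.18. Trpc4, a cation channel, had a ratio of 8.29 from 166 UMIs in 113 members and of 6.02 against all other kept nuclei. Syt2, a calcium sensor for fast transmitter release, had 8.49 from 85 UMIs in 59 members and 2.85 against all other kept nuclei. Pcdh8, a protocadherin, had 8.27 from 87 UMIs in 69 members, and Rxfp1, the relaxin receptor, 3.85 from 77 UMIs in 55 members. The membrane proteins Tmem200a and Tmem150c had ratios of 6.49 and 6.01. All 7 were above 1 in each library set.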
